A study of Homo sapiens with 9 samples.

Results

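Receptor tyrosine kinases were followed as 1 gene family in HEK293T cells transfected with an empty vector or with 1 of 2 CIC fusion oncoproteins. The members were taken by gene symbol, from a list of human receptor tyrosine kinases, and 55 of the 62700 genes in the count table matched it. The rule itself used no measured value, but the members were chosen with earlier results of these data known. The shares of members called are therefore a description. Of the 55, 46 passed the abundance filter and were tested, and 9 (ALK, AXL, CSF1R, INSRR, MUSK, ROS1, STYK1, TEK and TIE1) did not.

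Receptor tyrosine kinases are single-pass membrane proteins that bind a ligand outside the cell and phosphorylate tyrosines inside it, from where adaptors lead to the RAS-ERK, PI3K and phospholipase C pathways. CIC (capicua) is a DNA-binding repressor downstream of these receptors: its HMG box binds an octamer near target genes, and ERK signalling relieves the repression. In sarcomas, CIC is found joined to DUX4 or to NUTM1, both of which bring transcription-activating sequence to CIC's DNA-binding part.

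PolyA-selected RNA was sequenced from 3 groups of 3 libraries. All cells were the line 293T (HEK293T, an immortalised human embryonic kidney line carrying SV40 large T antigen, with features of neural and epithelial cells), and every group received a plasmid: without insert in the empty vector group, with HA-CIC::DUX4, or with HA-CIC(ex20)::NUTM1(ex6), in which exon 20 of CIC precedes exon 6 of NUTM1. Per the labels, replicates were transfected on separate days, with 300000 cells per condition, and RNA was taken about 48 hours later. The fusions were therefore carried transiently by a single cell line that has its own CIC genes, and the labels describe no sorting of transfected cells. Because the fused genes' own transcripts are not analysed here, group labels stand as given.

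Library totals ranged from 16970771 to 33655445 counts. Levels are given as CPM, read counts scaled to a fixed library size with TMM factors, in the order of replicates 1, 2 and 3, with the SD over 3 libraries, and floors and counting intervals cover counting error only. All 7 markers of 293T cells were detected with empty vector, among them VIM (573 CPM), NEFM (567 CPM) and LIN28B (114 CPM), while UMOD and SLC34A1, genes of mature kidney tubules, had 0 counts in every library. The markers of 293T cells did not all hold their level in the edgeR test given below. Against empty vector, LIN28B was called higher with both fusions, NEFL and NEFM lower with both, VIM higher with CIC::NUTM1 and KRT8 higher with CIC::DUX4. PAX2 and KRT18 were not called. Some markers of other cell types differed between groups as well. The summed level of 4 fibroblast markers was 6.89 to 8.11 CPM with empty vector, 10.2 to 13.9 with CIC::DUX4 and 12.7 to 15.3 with CIC::NUTM1. That of 4 blood markers was 1.202 to 3.21, 1.82 to 2.56 and 3.94 to 5.94 CPM, with CIC::DUX4 inside the empty vector range. Of the other kidney markers, NPHS1 had 1, 0 and 0 counts with empty vector, 56, 31 and 49 with CIC::DUX4 and 32, 31 and 15 with CIC::NUTM1. The 3 endothelial markers summed to at most 0.281, 0.801 and 0.600 CPM. The part of all these markers in the results was not tested.

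At rest, with empty vector, these cells expressed receptors of most subfamilies. The members summed to 1609 ± 46.2 CPM, and 30 of the 55 lay at 10 CPM or more, 11 between 1 and 10, and 14 below 1. Per kilobase of merged exons, which allows genes to be compared, FGFR3, a receptor for fibroblast growth factors, was highest at 31.2 ± 4.06 CPM per kilobase. It was followed by EPHB4 (a receptor for ephrin-B ligands, 19.9 ± 1.66), FGFR4 (13.4 ± 0.800), FLT4 (the VEGF-C receptor of lymphatic endothelium, 13.2 ± 0.883) and PTK7 (a receptor without kinase activity that takes part in Wnt signalling, 12.8 ± 0.622). MET (9.46 ± 0.843), ERBB2 (8.57 ± 0.622), EPHA7 (8.17 ± 0.846), FGFR1 (8.11 ± 0.464) and RYK (7.56 ± 0.775) filled places 6 to 10.

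Every FGFR3 library lay above every EPHB4 library, and those above FGFR4. FGFR4, FLT4 and PTK7 overlapped as neighbours, PTK7 lay above MET, and each neighbouring pair from place 6 to place 13 overlapped. The 10 highest members held 62.7% of the members' summed level per kilobase. With the longest coding transcript as length in place of merged exons, 9 of these 10 were shared; EPHA7 left the group, and DDR1, at 11.4 CPM per kilobase, entered it. The places of EPHA2 and EPHB3 differed between groups: EPHA2 was 13th with empty vector (6.95 ± 0.404) and 2nd with both CIC::DUX4 (23.7 ± 2.00) and CIC::NUTM1 (53.0 ± 13.2), whereas EPHB3 was 30th (1.25 ± 0.209), 8th (10.6 ± 2.04) and 5th (16.2 ± 4.95).

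**Figure D1:**
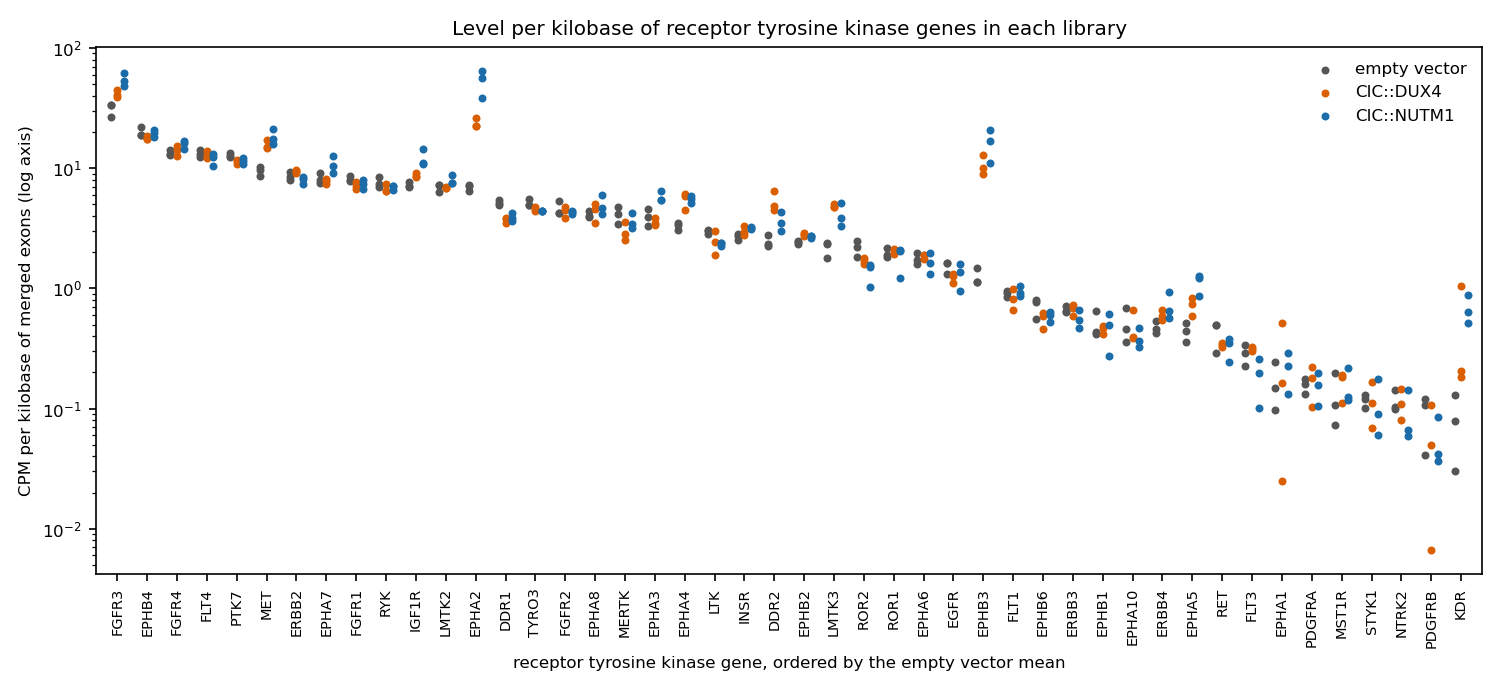
Level of 46 receptor genes in each library, in CPM per kilobase of merged exons on a log axis, ordered by the empty vector mean; the 9 members at 0.05 CPM per kilobase or below with empty vector are not drawn. Grey points are empty vector, orange CIC::DUX4 and blue CIC::NUTM1 libraries; the points of most genes lie together, while EPHA2, EPHB3 and KDR stand higher with both fusions.

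Expression of the family was then compared between groups with edgeR's quasi-likelihood test, and a gene was called where its Benjamini-Hochberg adjusted p over all 17576 genes tested was under 0.05. With CIC::DUX4, 9 members rose (FGFR3, NTRK3, MET, EPHA2, EPHA4, EPHA5, EPHB3, DDR2 and LMTK3) and 1 fell (DDR1). These are 19.6% and 2.17% of the 46 tested members, where 6.96% of all tested genes rose and 1.27% fell (8.24% called in all). The median member differed by 0.02 on the log2 scale, and the median of all tested genes by -0.00. The 3 libraries of CIC::DUX4 all lay above the 3 of empty vector for 13 members and all below for 6, against 14.8% and 11% of all tested genes. The abundance filter asked for the level of 10 counts at the median library size in at least 3 of the 9 libraries, and NTRK3 met it in fusion libraries alone, so that its call is no support. Of the 41 members that met it in all 3 libraries of both groups, 8 rose and 1 fell. Here and below, the shares of all tested genes are not restricted in this way.

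With CIC::NUTM1, 14 members rose, namely the same 9 and ERBB4, IGF1R, KDR, EPHA3 and EPHA7, and 2 fell (DDR1 and ROR2). These are 30.4% and 4.35% of the tested members, where 11.5% of all tested genes rose and 3.83% fell (15.3% called in all). The median member differed by -0.02 on the log2 scale. All libraries of CIC::NUTM1 lay above empty vector for 17 members and below for 5, against 18.2% and 12.9% of all tested genes. NTRK3 met the filter's level in no empty vector library and KDR in 2 of 3, so that neither call is support. Of the 40 members that met it in all 3 libraries of both groups, 12 rose and 2 fell. Both comparisons use the same 3 empty vector libraries. In bulk RNA, more cells with a transcript and more of it per cell cannot be told apart, and p-values measure the spread between these transfections.

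**Figure D2:**
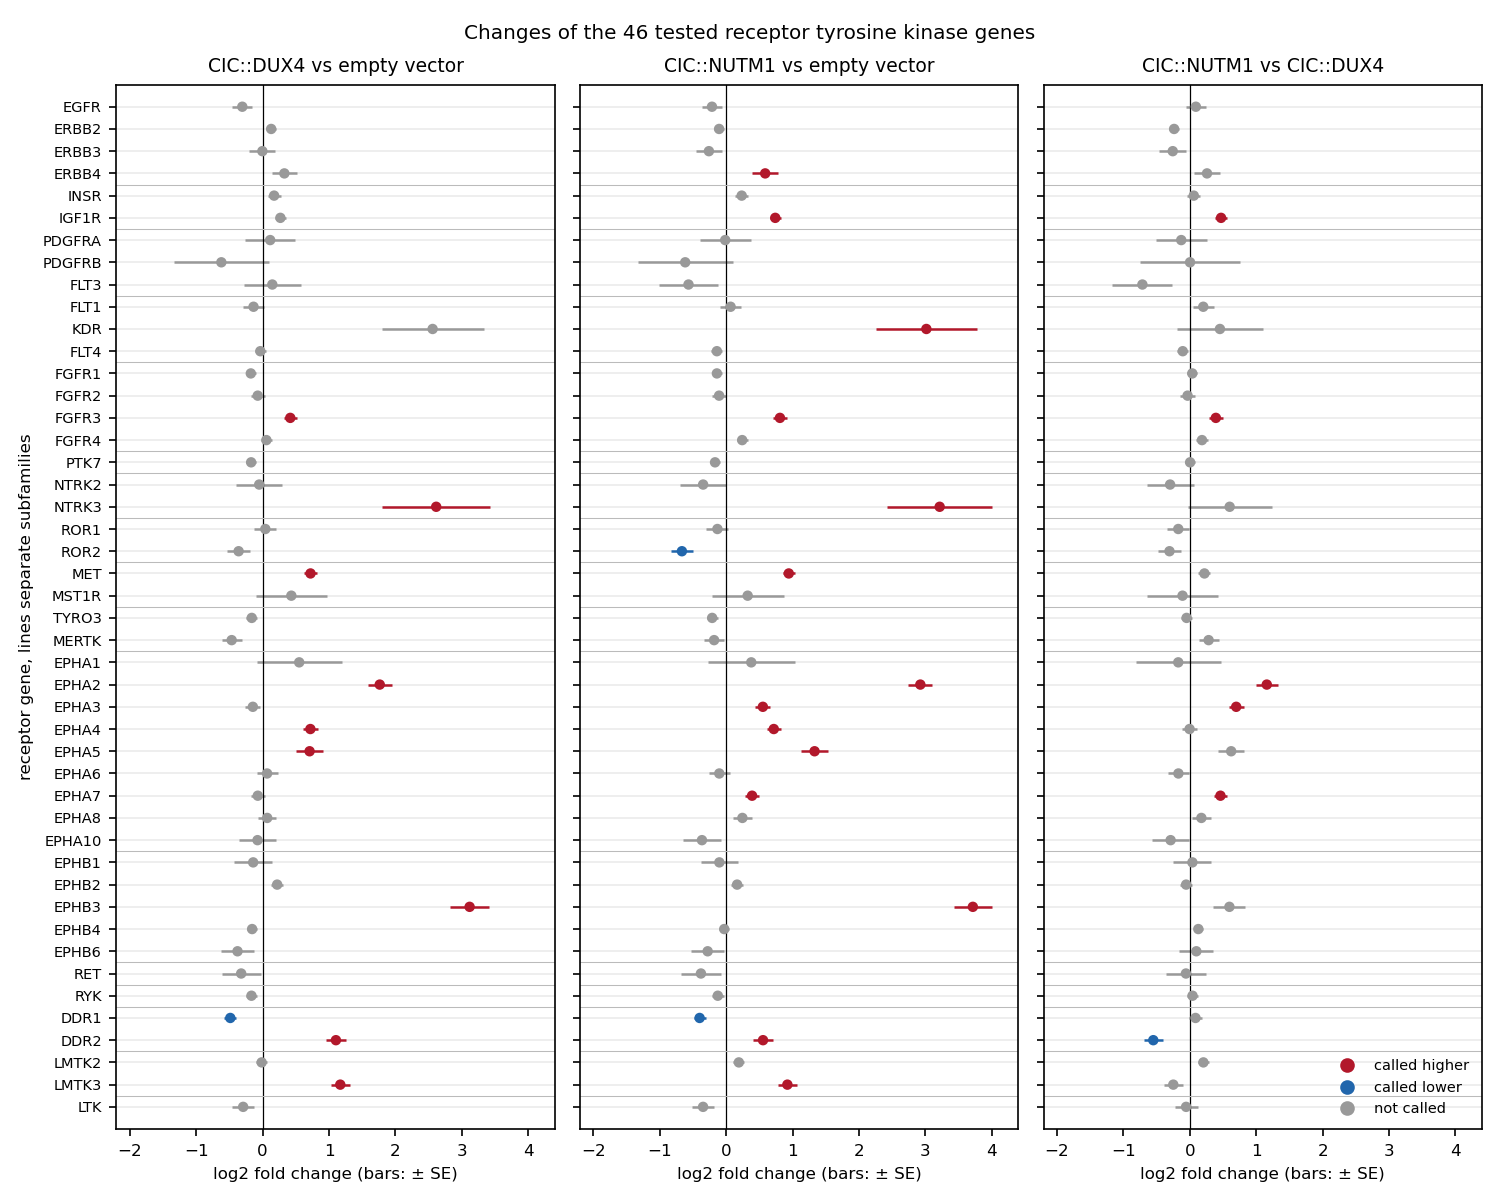
Log2 fold change of the 46 tested receptor genes (points) with its SE (bars) in the 3 comparisons, with subfamilies separated by lines and the same horizontal range in each panel. Red points were called higher, blue points called lower and grey points not called at an adjusted p of 0.05; the red points at the far right belong to EPHB3, NTRK3 and EPHA2, and in the CIC::NUTM1 panel to KDR.

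Eph receptors, the largest subfamily, bind membrane-anchored ephrins on neighbouring cells and are known for cell sorting, boundary formation and axon guidance. The 9 EPHA genes summed to 184 ± 14.8 CPM with empty vector, 269 ± 13.9 with CIC::DUX4 and 432 ± 61.5 with CIC::NUTM1. CIC::DUX4 gave 3 called members among the 9 and CIC::NUTM1 gave 5, all of them higher. Of all tested genes, 6.96% and 11.5% rose in these comparisons. The 5 EPHB genes summed to 171 ± 12.2, 204 ± 9.30 and 239 ± 28.3 CPM, and EPHB3 alone was called among them, with each fusion. The mean sums of other subfamilies were higher with the fusions too. The 2 MET receptors summed to 67.3 ± 5.66, 111 ± 9.43 and 129 ± 17.8 CPM. The 3 insulin receptors summed to 129 ± 6.12, 153 ± 6.72 and 202 ± 27.1 CPM, and the 4 FGF receptors to 363 ± 23.7, 401 ± 18.2 and 475 ± 38.4. Among the lower sums were those of the 3 TAM receptors, at 75.5 ± 6.25, 64.4 ± 2.63 and 65.5 ± 2.76 CPM. By comparison, the 3 VEGF receptors summed to 129 ± 6.88, 128 ± 8.14 and 123 ± 13.6 CPM, and the 4 EGF receptors to 119.7 ± 7.40, 126 ± 3.32 and 113 ± 4.88. A sum is set by its most abundant members, so single genes are given next.

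**Figure D3:**
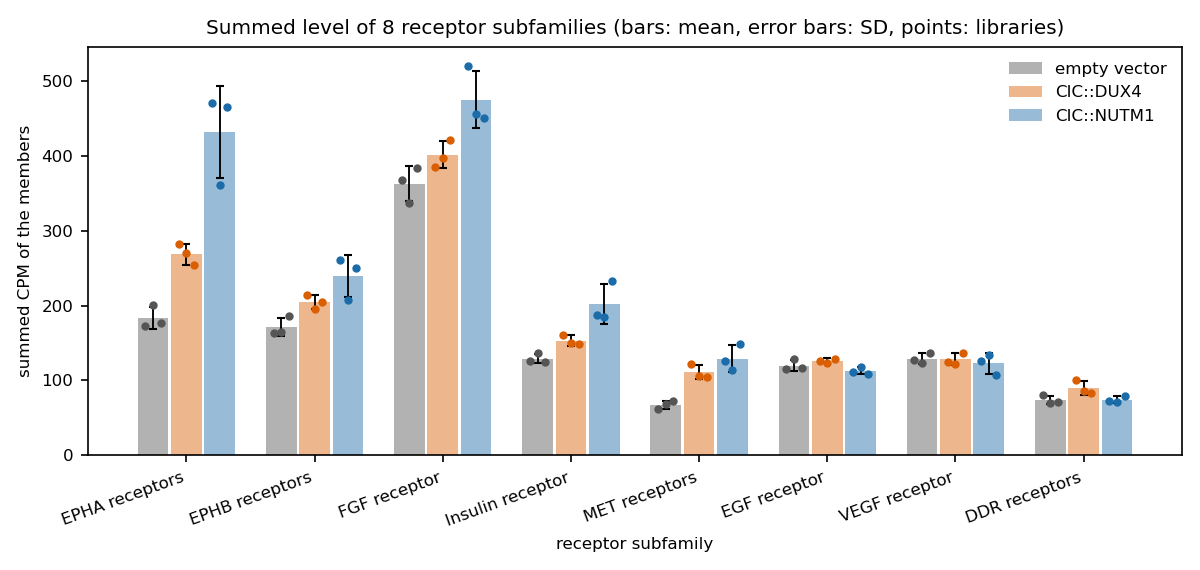
Summed CPM of the members of 8 receptor subfamilies (bars: mean of 3 libraries, error bars: SD, points: libraries) with empty vector (grey), CIC::DUX4 (orange) and CIC::NUTM1 (blue). With CIC::NUTM1 the EPHA sum goes from 184 ± 14.8 to 432 ± 61.5 CPM, and the MET receptor sum from 67.3 ± 5.66 to 129 ± 17.8. The VEGF receptor sums stand at 129 ± 6.88, 128 ± 8.14 and 123 ± 13.6 CPM.

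EPHA2 (ENSG00000142627, chr1:16124337-16156087 on the minus strand of GRCh38, GENCODE 29) encodes a receptor for ephrin-A ligands that is common in epithelia and carcinomas. Its level was 27.0, 30.2 and 29.5 CPM with empty vector, 108, 93.8 and 93.4 with CIC::DUX4 and 268, 160.4 and 233 with CIC::NUTM1. The 3 groups did not overlap, and the lowest CIC::NUTM1 library still exceeded every CIC::DUX4 library. EPHA2 rose 3.4-fold with CIC::DUX4 (log2 fold change 1.76 ± 0.18, ± SE, edgeR adjusted p = 0.000229) and 7.62-fold with CIC::NUTM1 (log2 2.92 ± 0.18, adjusted p = 4.56e-06). Its share of the members' summed level per kilobase was 3.29% with empty vector, 9.28% with CIC::DUX4 and 16.8% with CIC::NUTM1, while that of FGFR3 was 14.8%, 16.3% and 17.3%.

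RefSeq promoter windows (GRCh38.p14, 250 bases before to 50 after a start site) were searched for the CIC octamers TGAATGAA and TGAATGGA on both strands. The table held 81 windows for 49 of the 55 members, and 1 of the 81, that of EPHA2, held an octamer (1.23%), while 922 of all 35116 windows did (2.63%). The match in EPHA2 begins at position -34 from the start site. The 250 bases up to that start site (chr1:16156070-16156319, minus strand) are shown because they carry the match, in capitals, and the same stretch of EPHB3 (chr3:184561535-184561784, plus strand), the tested member with the largest fold change with CIC::DUX4, is shown for comparison and holds none:
EPHA2: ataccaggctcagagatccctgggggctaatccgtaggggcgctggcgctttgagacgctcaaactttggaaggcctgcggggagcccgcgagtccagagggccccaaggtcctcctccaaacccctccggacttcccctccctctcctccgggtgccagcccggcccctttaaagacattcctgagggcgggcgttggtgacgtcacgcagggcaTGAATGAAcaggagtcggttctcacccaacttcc
EPHB3: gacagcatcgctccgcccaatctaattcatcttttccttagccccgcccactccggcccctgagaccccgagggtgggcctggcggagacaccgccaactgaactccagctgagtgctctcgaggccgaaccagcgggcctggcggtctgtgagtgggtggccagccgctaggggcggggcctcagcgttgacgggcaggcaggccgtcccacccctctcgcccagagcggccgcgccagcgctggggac
A match describes these letters and is no measurement of binding, and the absence of one says nothing about sites outside the window. EPHA10, ERBB3, FGFR1, FLT4, INSRR and STYK1 had no entry.

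EPHB3 (ENSG00000182580, chr3:184561784-184582409 on the plus strand) encodes a receptor for ephrin-B ligands known for positioning cells along the intestinal crypt. It was low at rest, at 6.75, 5.09 and 5.13 CPM. Its level was 58.6, 40.9 and 45 CPM with CIC::DUX4 and 94.3, 49.6 and 76.2 with CIC::NUTM1, so both fusion groups lay wholly above empty vector. It rose 8.51-fold with CIC::DUX4 (log2 3.12 ± 0.29, edgeR adjusted p = 0.000298) and 13.0-fold with CIC::NUTM1 (log2 3.71 ± 0.29, adjusted p = 5.84e-05). The fusion groups overlapped, and the difference between them (log2 0.60 ± 0.24) was not called (adjusted p = 0.244). Without the second CIC::NUTM1 library, the lowest of its group, that difference was called (adjusted p = 0.000691), and with the replicate block it was too (0.000513).

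EPHA4 (ENSG00000116106, chr2:221418027-221574202 on the minus strand) is a receptor that binds both ephrin classes and is known from axon repulsion; it shares exon bases with 1 gene on the other strand. Its level was 25.6, 26.7 and 23.2 CPM with empty vector, 45.7, 44.7 and 33.8 with CIC::DUX4 and 41.8, 38.6 and 44.0 with CIC::NUTM1. Both fusion groups lay above empty vector and overlapped with each other. EPHA4 rose by 0.72 on the log2 scale with CIC::DUX4 (edgeR adjusted p = 3.79e-05) and by 0.72 with CIC::NUTM1 (adjusted p = 2.38e-05), and the fusions differed by -0.00 ± 0.11 log2 units (adjusted p = 0.994).

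EPHA5 (ENSG00000145242, chr4:65319563-65670495 on the minus strand), a neuronal ephrin-A receptor that likewise shares exon bases with 1 gene on the other strand, was lower at rest, at 3.49, 5.04 and 4.37 CPM. Its level was 7.29, 8.14 and 5.82 CPM with CIC::DUX4 and 12.4, 8.57 and 12.0 with CIC::NUTM1, and the 3 groups did not overlap. It rose by 1.33 ± 0.20 log2 units with CIC::NUTM1 (edgeR adjusted p = 2.12e-05) and by 0.71 ± 0.20 log2 units with CIC::DUX4 (adjusted p = 0.0279). The call with CIC::DUX4 was lost without empty vector library 1 (adjusted p = 0.126) or 3 (0.0905) and without CIC::DUX4 library 1 (0.105) or 2 (0.138). The difference between the fusions was 0.62 ± 0.20 log2 units and was not called (adjusted p = 0.0562), but was without the second CIC::NUTM1 library (0.0167) and with no filter (0.0336).

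EPHA3 and EPHA7, receptors of the developing nervous system, rose with CIC::NUTM1 and not with CIC::DUX4. EPHA3 (ENSG00000044524, chr3:89107524-89482134 on the plus strand) was at 22.1, 30.4 and 26.2 CPM with empty vector, 23.5, 25.5 and 22.5 with CIC::DUX4 and 36.4, 36.5 and 43.4 with CIC::NUTM1. The CIC::NUTM1 libraries stood above both other groups, which overlapped. It rose by 0.55 ± 0.11 log2 units with CIC::NUTM1 (edgeR adjusted p = 0.000916), differed by -0.15 ± 0.12 log2 units with CIC::DUX4 (adjusted p = 0.543), and CIC::NUTM1 exceeded CIC::DUX4 by 0.70 ± 0.11 log2 units (adjusted p = 0.000205).

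EPHA7 (ENSG00000135333, chr6:93240020-93419547 on the minus strand) was at 59.0, 68.0 and 55.8 CPM with empty vector, 61.0, 57.9 and 55.1 with CIC::DUX4 and 67.7, 77.3 and 94.8 with CIC::NUTM1. The first CIC::NUTM1 library fell within the empty vector range, and all 3 lay above CIC::DUX4. EPHA7 rose by 0.39 ± 0.10 log2 units with CIC::NUTM1 (edgeR adjusted p = 0.00985) and was higher than with CIC::DUX4 by 0.46 ± 0.10 log2 units (adjusted p = 0.0059). The first of these calls was lost without empty vector library 3 (adjusted p = 0.0735) or CIC::NUTM1 library 3 (0.13), and the second without CIC::NUTM1 library 3 (0.0743).

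The other 4 EPHA genes passed no test. EPHA8, at 21.5, 23.5 and 21.1 CPM with empty vector, 18.6, 24.3 and 27.0 with CIC::DUX4 and 31.9, 24.8 and 22.1 with CIC::NUTM1, overlapped between all groups. EPHA6, at 10.9, 12.4 and 9.98 CPM with empty vector, 12.0, 11.8 and 11.1 with CIC::DUX4 and 8.28, 10.3 and 12.4 with CIC::NUTM1, showed no separation either. EPHA10, a member without kinase activity, was at 2.92, 3.72 and 5.57 CPM with empty vector, 3.24, 3.16 and 5.35 with CIC::DUX4 and 3.00, 3.83 and 2.64 with CIC::NUTM1. EPHA1 was near the limit of measurement, at 0.458, 0.703 and 1.16 CPM with empty vector, 2.44, 0.767 and 0.118 with CIC::DUX4 and 1.38, 1.07 and 0.622 with CIC::NUTM1, with CIC::DUX4 library 1 the highest of the 9.

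Among the EPHB genes that were not called, EPHB4, the partner of EFNB2 in the vessel wall, was abundant at 122, 122 and 140.4 CPM with empty vector, 113, 113 and 118 with CIC::DUX4 and 127, 117 and 133 with CIC::NUTM1. Its CIC::DUX4 libraries all lay below empty vector, a difference of -0.16 ± 0.07 log2 units (edgeR adjusted p = 0.222). EPHB2, which shares ligands and crypt functions with EPHB3, was at 29.2, 30.5 and 31.1 CPM with empty vector, 36.0, 34.1 and 35.6 with CIC::DUX4 and 34.4, 33.0 and 34.4 with CIC::NUTM1, and both fusion groups lay above empty vector without passing the test (log2 0.22 ± 0.09, adjusted p = 0.163, and log2 0.16 ± 0.09, adjusted p = 0.251). EPHB1 was at 2.92, 3.02 and 4.53 CPM with empty vector, 3.24, 3.35 and 2.88 with CIC::DUX4 and 1.92, 4.29 and 3.42 with CIC::NUTM1. EPHB6, which lacks kinase activity, was at 2.98, 4.13 and 4.25 CPM with empty vector, 2.44, 3.11 and 3.29 with CIC::DUX4 and 2.82, 3.21 and 3.37 with CIC::NUTM1.

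**Figure D4:**
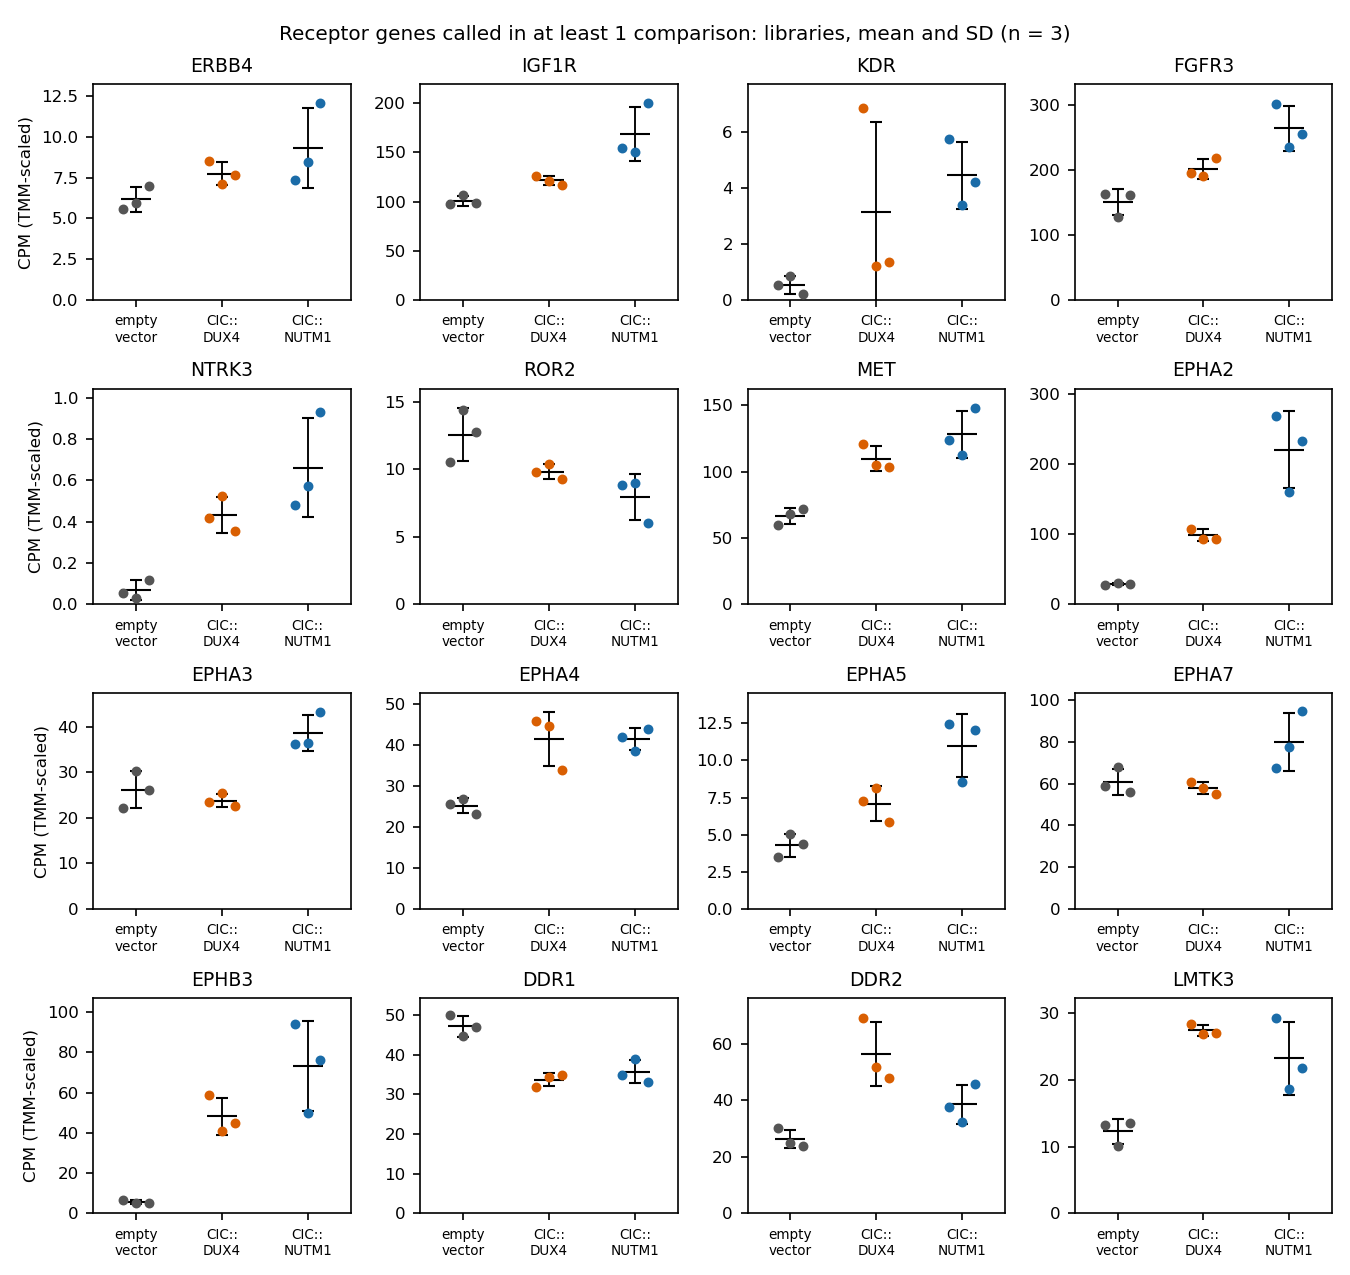
CPM of the 16 receptor genes called in at least 1 comparison, with each library as a point, and the mean and SD of 3 libraries in black, by group; each panel has its own axis from 0, where the SD of KDR with CIC::DUX4 is cut off. EPHA2 and EPHB3 libraries with either fusion all stand above empty vector, DDR1 libraries all stand below it, and DDR2 is highest with CIC::DUX4.

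Several growth factor receptors rose as well. MET (ENSG00000105976, chr7:116672390-116798386 on the plus strand), the receptor for hepatocyte growth factor, was at 60.1, 67.8 and 71.8 CPM with empty vector, 121, 105 and 104 with CIC::DUX4 and 124, 113 and 148 with CIC::NUTM1. Both fusion groups lay well above empty vector and overlapped with each other. MET rose 1.65-fold with CIC::DUX4 (log2 0.72 ± 0.09, edgeR adjusted p = 7.47e-06) and 1.93-fold with CIC::NUTM1 (log2 0.94 ± 0.09, adjusted p = 9.25e-08), the smallest adjusted p among the members in the latter comparison. The fusions differed by 0.22 ± 0.09 log2 units (adjusted p = 0.182), a difference that was called without the second CIC::NUTM1 library (adjusted p = 0.0416). Its relative MST1R, the receptor for macrophage-stimulating protein, was at 1.03, 0.381 and 0.561 CPM with empty vector, 0.954, 1.01 and 0.588 with CIC::DUX4 and 1.14, 0.650 and 0.622 with CIC::NUTM1 and was not called.

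FGFR3 (ENSG00000068078, chr4:1793293-1808872 on the plus strand), the most abundant member per kilobase at rest, was at 163, 128 and 162 CPM with empty vector, 196, 190.2 and 219 with CIC::DUX4 and 303, 236 and 255 with CIC::NUTM1. The 3 groups did not overlap. FGFR3 rose by 0.42 ± 0.10 log2 units with CIC::DUX4 (edgeR adjusted p = 0.0167) and by 0.81 ± 0.10 log2 units with CIC::NUTM1 (adjusted p = 3.33e-05), and CIC::NUTM1 exceeded CIC::DUX4 by 0.39 ± 0.10 log2 units (adjusted p = 0.0287). The call with CIC::DUX4 was lost without CIC::DUX4 library 3 (adjusted p = 0.071). That between the fusions was lost without CIC::NUTM1 library 1 (0.0729) or 3 (0.098) and without CIC::DUX4 library 1 (0.0994) or 2 (0.126).

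The other FGF receptors were not called. FGFR4 was at 63.2, 69.0 and 61.7 CPM with empty vector, 60.4, 73.8 and 67.9 with CIC::DUX4 and 81.2, 77.9 and 70.3 with CIC::NUTM1. Its CIC::NUTM1 libraries lay above empty vector, a difference of 0.24 ± 0.08 log2 units (edgeR adjusted p = 0.0561), and that difference was called without CIC::NUTM1 library 3 (0.0476) and with the replicate block (0.0475). FGFR1 was at 109.5, 108 and 119.6 CPM with empty vector, 93.6, 98.8 and 106 with CIC::DUX4 and 102, 111 and 92.3 with CIC::NUTM1, with all CIC::DUX4 libraries below empty vector (log2 -0.18 ± 0.08, adjusted p = 0.191). FGFR2 was at 31.9, 32.2 and 40.5 CPM with empty vector, 36.0, 34.1 and 29.1 with CIC::DUX4 and 33.2, 31.3 and 32.7 with CIC::NUTM1, with every group overlapping.

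IGF1R (ENSG00000140443, chr15:98648539-98964530 on the plus strand), the receptor for insulin-like growth factors, was at 97.7, 107 and 98.3 CPM with empty vector, 126, 121 and 117 with CIC::DUX4 and 154, 151 and 200.3 with CIC::NUTM1. The groups followed each other without overlap, empty vector lowest and CIC::NUTM1 highest. IGF1R rose 1.67-fold with CIC::NUTM1 (log2 0.74 ± 0.09, edgeR adjusted p = 9.45e-07) and exceeded CIC::DUX4 by 0.47 ± 0.09 log2 units (adjusted p = 0.000878). With CIC::DUX4 it differed by 0.27 ± 0.09 log2 units and was not called (adjusted p = 0.0578), but was in a fit of those 2 groups alone (0.00734) and with no filter (0.0175). INSR, the insulin receptor, was at 28.6, 29.3 and 26.5 CPM with empty vector, 34.7, 29.3 and 31.1 with CIC::DUX4 and 33.2, 33.7 and 32.4 with CIC::NUTM1, with no call although its CIC::NUTM1 libraries all lay above empty vector (log2 0.23 ± 0.10, adjusted p = 0.116). INSRR, the last of this subfamily, was below the filter.

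In the EGF receptor family, ERBB4 (ENSG00000178568, chr2:211375717-212538841 on the minus strand), a neuregulin receptor, was the called member. It was at 5.55, 5.97 and 7.01 CPM with empty vector, 8.54, 7.09 and 7.65 with CIC::DUX4 and 7.38, 8.46 and 12.1 with CIC::NUTM1, and all libraries of both fusions lay above empty vector. It rose by 0.59 ± 0.19 log2 units with CIC::NUTM1 (edgeR adjusted p = 0.038), and with CIC::DUX4 differed by 0.33 ± 0.19 log2 units (adjusted p = 0.383). The call was lost without empty vector library 1 (adjusted p = 0.133) or 2 (0.113), without CIC::NUTM1 library 3 (0.322), with library totals as the scaling (0.0533), with upper quartile factors (0.0522) and with DESeq2 (0.0557).

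EGFR itself, the receptor for EGF and TGFA, was at 20.4, 20.2 and 16.3 CPM with empty vector, 13.8, 16.4 and 16 with CIC::DUX4 and 11.9, 19.8 and 17.0 with CIC::NUTM1, and every group overlapped. Its difference was -0.31 ± 0.15 log2 units with CIC::DUX4 (edgeR adjusted p = 0.28) and -0.21 ± 0.15 log2 units with CIC::NUTM1 (adjusted p = 0.4). ERBB2, the ligandless partner of the family, was at 83.0, 95.5 and 86.9 CPM with empty vector, 97.5, 93.8 and 99.4 with CIC::DUX4 and 86.9, 84.1 and 75.8 with CIC::NUTM1. Its CIC::NUTM1 libraries lay below those of CIC::DUX4, a difference of -0.24 ± 0.08 log2 units (adjusted p = 0.0619), which was called without CIC::NUTM1 library 1 (0.0397), with library totals (0.0251), with upper quartile factors (0.0336) and with DESeq2 (0.0372). ERBB3, a kinase-impaired neuregulin receptor, was at 5.72, 6.5 and 5.89 CPM with empty vector, 6.56, 5.37 and 6.18 with CIC::DUX4 and 4.92, 5.97 and 4.2 with CIC::NUTM1.

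The discoidin domain receptors, which bind collagen rather than a soluble factor, moved in opposite directions. DDR1 (ENSG00000204580, chr6:30876421-30900156 on the plus strand), typical of epithelia, was at 49.95, 44.7 and 46.9 CPM with empty vector, 31.8, 34.4 and 34.8 with CIC::DUX4 and 34.9, 38.9 and 33.2 with CIC::NUTM1. All fusion libraries lay below all empty vector libraries. DDR1 fell by 0.49 ± 0.09 on the log2 scale with CIC::DUX4 (edgeR adjusted p = 0.000651) and by 0.40 ± 0.09 log2 units with CIC::NUTM1 (adjusted p = 0.00285), and both calls held in each alternative fit. DDR1 shares exon bases with 1 gene on the same strand.

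DDR2 (ENSG00000162733, chr1:162631373-162787400 on the plus strand), typical of fibroblasts and other mesenchymal cells, was at 30.04, 25.1 and 24 CPM with empty vector, 69.2, 51.8 and 47.8 with CIC::DUX4 and 37.8, 32.2 and 46 with CIC::NUTM1. The 3 groups did not overlap, and CIC::DUX4 was the highest. DDR2 rose 2.13-fold with CIC::DUX4 (log2 1.10 ± 0.15, edgeR adjusted p = 0.000106) and 1.47-fold with CIC::NUTM1 (log2 0.55 ± 0.15, adjusted p = 0.0195), and was lower with CIC::NUTM1 than in the CIC::DUX4 group, a difference of -0.55 ± 0.15 log2 units (adjusted p = 0.0341). The summed level of the fibroblast markers given above was higher with both fusions as well. Of these markers, LUM was called higher with both (edgeR adjusted p = 0.00257 and 3.32e-05) and DCN with CIC::NUTM1 (0.152 and 0.00533), COL3A1 was not called (0.985 and 0.333), and COL1A2 was below the filter. Their part in the DDR2 values was not tested. With CIC::NUTM1 the call was lost without empty vector library 2 (adjusted p = 0.078) or 3 (0.09) and without CIC::NUTM1 library 1 (0.0682) or 3 (0.0884). The call between the fusions was lost without CIC::NUTM1 library 1 (0.126) or 2 (0.086) and without CIC::DUX4 library 1 (0.109).

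LMTK3 (ENSG00000142235, chr19:48485271-48513935 on the minus strand), a transmembrane kinase of the lemur family enriched in brain, was at 13.2, 10.1 and 13.6 CPM with empty vector, 28.3, 26.9 and 27.0 with CIC::DUX4 and 29.3, 18.6 and 21.8 with CIC::NUTM1. Both fusion groups lay above empty vector and overlapped. It rose 2.23-fold with CIC::DUX4 (log2 1.17 ± 0.15, edgeR adjusted p = 3.31e-06) and 1.89-fold with CIC::NUTM1 (log2 0.92 ± 0.15, adjusted p = 5.57e-05). It shares exon bases with 1 gene on the same strand. Its relative LMTK2 was at 57.6, 66.6 and 66.4 CPM with empty vector, 64.3, 62.0 and 62.7 with CIC::DUX4 and 68.2, 69.4 and 80.3 with CIC::NUTM1; the CIC::NUTM1 libraries lay above both other groups, and no test was passed.

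ROR2 (ENSG00000169071, chr9:91563091-91950162 on the minus strand), a receptor for WNT5A, was at 10.5, 14.4 and 12.8 CPM with empty vector, 9.84, 10.4 and 9.29 with CIC::DUX4 and 8.82, 9.03 and 6.01 with CIC::NUTM1. The 3 groups did not overlap, with CIC::NUTM1 lowest. ROR2 fell by 0.67 ± 0.17 log2 units with CIC::NUTM1 (edgeR adjusted p = 0.0076), a call lost without empty vector library 2 (adjusted p = 0.0654) or CIC::NUTM1 library 3 (0.0515). With CIC::DUX4 its difference was -0.36 ± 0.17 log2 units (adjusted p = 0.237). ROR1 was at 12.3, 12.6 and 14.7 CPM with empty vector, 12.9, 14.2 and 13.6 with CIC::DUX4 and 8.16, 13.9 and 13.9 with CIC::NUTM1 and was not called.

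KDR (ENSG00000128052, chr4:55078259-55125595 on the minus strand), the main VEGF-A receptor of endothelium, was low at rest. It had 9, 29 and 5 counts with empty vector, 180, 25 and 23 with CIC::DUX4 and 96, 89 and 81 with CIC::NUTM1, or 0.515, 0.849 and 0.200 CPM with empty vector, 6.87, 1.2 and 1.35 with CIC::DUX4 and 5.76, 3.41 and 4.2 with CIC::NUTM1. All fusion libraries exceeded all empty vector libraries, and CIC::DUX4 library 1 stood far above the other 2 of its group. KDR rose by 3.01 ± 0.76 log2 units with CIC::NUTM1 (edgeR adjusted p = 0.0274), and with CIC::DUX4 its difference of 2.56 ± 0.77 log2 units was not called (adjusted p = 0.0876). It met the filter's level in 2 of 3 empty vector libraries and needed fusion libraries, where it is high, to be tested. The KDR calls given here and next describe it and are no support.

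The KDR call with CIC::NUTM1 was lost without empty vector library 1 (adjusted p = 0.0988) or 3 (0.097) and without CIC::NUTM1 library 1 (0.0795) or 3 (0.0808). With CIC::DUX4 it was called without CIC::DUX4 library 2 (0.0153) or 3 (0.0367), with DESeq2 (0.0317), with limma-trend (0.0418), with the replicate block (0.0146) and without the abundance filter (1.1e-06). Between the fusions it differed by 0.45 ± 0.65 log2 units (adjusted p = 0.798), and by 1.79 log2 units without CIC::DUX4 library 1 (adjusted p = 0.0138). That library was also the highest of its group in KRT8, with 967 counts against 403 and 316, and in the fibroblast gene COL1A2, with 64 counts against 6 and 7; it was the deepest library of its group. The endothelial markers were too low to be tested. VWF had 1, 2 and 2 counts with empty vector, 12, 6 and 0 with CIC::DUX4 and 1, 0 and 3 with CIC::NUTM1, and was thus highest in the same library. PECAM1 had 0, 0 and 5, then 6, 4 and 3, and then 9, 3 and 0 counts, and CDH5 had at most 3 in any library. The part of these differences in the KDR values was not tested. FLT1, the other VEGF-A receptor, was at 11.6, 11.9 and 10.7 CPM with empty vector, 10.3, 8.34 and 12.5 with CIC::DUX4 and 10.9, 13.2 and 11.5 with CIC::NUTM1, and FLT4 at 116, 110.4 and 126 CPM with empty vector, 108, 112 and 123 with CIC::DUX4 and 109.9, 117 and 91.8 with CIC::NUTM1; neither was called in any comparison.

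NTRK3 (ENSG00000140538, chr15:87859751-88256768 on the minus strand), the receptor for neurotrophin-3, left the floor of 3 counts. It had 1, 1 and 3 counts with empty vector, 11, 11 and 6 with CIC::DUX4 and 8, 15 and 18 with CIC::NUTM1, and the empty vector libraries lay below all others. The pooled ratio was 6.69 with CIC::DUX4 (95% counting interval 2.55 to 22.2) and 10.1 with CIC::NUTM1 (3.999 to 32.8). It passed the filter through 1 CIC::DUX4 and 2 CIC::NUTM1 libraries, where it was high, so the calls that follow describe it and support nothing. NTRK3 was called with CIC::NUTM1 (edgeR adjusted p = 0.00541), a call lost without empty vector library 2 (adjusted p = 0.0553). With CIC::DUX4 the adjusted p of 0.0471 passed narrowly and the call was lost in each of the 6 fits without 1 library: without empty vector library 1 (0.14), 2 (0.232) or 3 (0.0733) and without CIC::DUX4 library 1 (0.141), 2 (0.161) or 3 (0.0724). It was also lost with DESeq2 (0.0808), limma-trend (0.0723), no filter (0.112) and the replicate block (0.0561). NTRK2, the BDNF receptor, was at 2.12, 2.93 and 2.00 CPM with empty vector, 2.94, 2.20 and 1.65 with CIC::DUX4 and 1.2, 2.91 and 1.35 with CIC::NUTM1 and was not called.

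In all, 30 tested members were called in none of the 3 comparisons. Of the members not called, 23 were at 10 CPM or more in the CIC::DUX4 comparison, with log2 differences from -0.47 (MERTK) to 0.27 (IGF1R), and 19 in the CIC::NUTM1 comparison, from -0.35 (LTK) to 0.24 (EPHA8). PTK7 was at 111, 114 and 122 CPM with empty vector, 98.1, 104 and 106 with CIC::DUX4 and 103, 109 and 96.8 with CIC::NUTM1, and both fusion groups lay below empty vector, a difference of -0.17 ± 0.07 log2 units with CIC::DUX4 (edgeR adjusted p = 0.157) and -0.17 ± 0.07 log2 units with CIC::NUTM1 (adjusted p = 0.116). RYK, a Wnt receptor without kinase activity, was at 55.7, 67.8 and 59.0 CPM with empty vector, 51.5, 59.5 and 51.9 with CIC::DUX4 and 53.2, 57.3 and 56.9 with CIC::NUTM1 and overlapped throughout.

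Of the TAM receptors, which recognise phosphatidylserine through GAS6 or protein S, MERTK was at 16.1, 19.5 and 22.2 CPM with empty vector, 13.2, 16.7 and 11.9 with CIC::DUX4 and 14.9, 19.9 and 16 with CIC::NUTM1. Its difference with CIC::DUX4, -0.47 ± 0.15 log2 units (edgeR adjusted p = 0.0554), was called lower without empty vector library 1 (0.0274) or CIC::DUX4 library 2 (0.019), in a fit of those 2 groups alone (0.0291), with the replicate block (0.0384) and with no filter (0.00877). TYRO3 lay below empty vector in every fusion library, with differences of -0.16 ± 0.08 log2 units (adjusted p = 0.276) and -0.21 ± 0.08 log2 units (adjusted p = 0.0845). PTK7 and TYRO3 were called lower with CIC::NUTM1 when libraries were scaled by their totals (adjusted p = 0.0395 and 0.0315). The low members PDGFRA, PDGFRB, FLT3, RET and LTK had mean levels from 0.637 to 10.3 CPM with empty vector and no call.

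The 9 untested receptors were near 0 in all groups, and 7 members, NTRK3 among them, had 3 counts or fewer in every empty vector library. ALK, a receptor of the developing nervous system, had 0 counts in all 3 empty vector libraries, 16, 7 and 3 with CIC::DUX4 and 2, 8 and 5 with CIC::NUTM1. Against 3 counts per empty vector library, the mean was at least 2.96-fold higher with CIC::DUX4 and at least 1.80-fold with CIC::NUTM1. These bounds, here and below, rest on the mean of a fusion group and leave out the spread between its libraries. Every CIC::DUX4 and CIC::NUTM1 library held ALK reads. Without the filter, edgeR called ALK in both comparisons (adjusted p = 0.00865 and 0.0228). ALK was named because it left the floor with the fusions, so these calls describe it and are no support.

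The ALK promoter window (chr2:29921537-29921836, minus strand) held the related octamer TCAATGAA, at position -211 from the start site. TCAATGAA or TCAATGGA occurred in 427 of the 35116 windows (1.22%), and in 1 of the members' 81 (1.23%), that of ALK. The bases around it are shown with the octamer in capitals:
ALK: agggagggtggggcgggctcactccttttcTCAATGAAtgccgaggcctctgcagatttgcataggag

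MUSK, the agrin-responsive receptor of the neuromuscular junction, had 0 counts in the empty vector libraries, 3, 0 and 3 with CIC::DUX4 and 4, 4 and 13 with CIC::NUTM1, at least 2.81-fold higher with CIC::NUTM1 (edgeR without the filter, adjusted p = 0.025). ROS1 had 0 counts with empty vector, 4, 2 and 0 with CIC::DUX4 and 7, 1 and 5 with CIC::NUTM1. Its mean was 1.89 times the level of 3 counts per empty vector library with CIC::NUTM1 and 0.654 times with CIC::DUX4. The second CIC::NUTM1 library itself lay under 3 counts, and ROS1 was not called with CIC::NUTM1 (edgeR without the filter, adjusted p = 0.0917). MUSK and ROS1 were also named for leaving the floor, so these values are no support. TEK, the angiopoietin receptor, had 1, 2 and 0 counts with empty vector, 4, 6 and 4 with CIC::DUX4 and 0, 0 and 5 with CIC::NUTM1, a pooled ratio of 5.58 with CIC::DUX4 (95% counting interval 1.56 to 30.3). That interval leaves out the spread between libraries, and edgeR without the filter did not call TEK with CIC::DUX4 (adjusted p = 0.549). CSF1R, the receptor of macrophages for CSF1, had 2, 0 and 1 counts with empty vector, 3, 6 and 0 with CIC::DUX4 and 1, 2 and 2 with CIC::NUTM1. The remaining 4, TIE1, INSRR, AXL and STYK1, held 0, 8, 18 and 31 counts in all with empty vector, 6, 3, 24 and 26 with CIC::DUX4, and 0, 11, 12 and 22 with CIC::NUTM1. Genes below the filter were higher as a group: the 3839 protein-coding ones summed to 2.18 times the empty vector level with CIC::DUX4 and 1.98 times with CIC::NUTM1. The part of this shift in the values of the low receptors was not tested.

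Set directly against each other, the fusions differed in 6 members. IGF1R, FGFR3, EPHA2, EPHA3 and EPHA7 were higher with CIC::NUTM1, and DDR2 was higher with CIC::DUX4. These are 10.9% and 2.17% of the tested members, where 4.97% and 1.64% of all tested genes were higher and lower with CIC::NUTM1 (6.61% called in all). EPHA2 had the largest of these differences, at 2.24-fold (log2 1.16 ± 0.17, edgeR adjusted p = 0.00347). All CIC::NUTM1 libraries lay above CIC::DUX4 for 7 members and below for 4, against 12.6% and 9.36% of all tested genes, and the median member differed by 0.04 on the log2 scale. Of the 5 members called higher with CIC::NUTM1 and not with CIC::DUX4, IGF1R, EPHA3 and EPHA7 passed this direct test, whereas for ERBB4 and KDR no difference between the fusions was shown.

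Among the members called higher, the same library of a fusion group was often the highest or the lowest. Of the 14 members that rose with CIC::NUTM1, library 2 was the lowest of its group in 10 and the highest in 0, and library 3 was the highest in 8. Of the 9 that rose with CIC::DUX4, library 1 was the highest in 6 and the lowest in 0. The same was not counted over all tested genes, so these counts stand without a background and are not shown to be particular to the receptors. The amount of fusion in each library was not analysed here, and its part in these differences was not tested.

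The receptors' ligands were counted next, from a list of 62. This list and those that follow were chosen with earlier results of these data known, so their shares are a description. Of the 47 tested, 13 rose with CIC::DUX4 (27.7%, where 6.96% of all tested genes did) and no other was called, and 18 rose and 2 fell with CIC::NUTM1 (38.3% and 4.26%, against 11.5% and 3.83%). Among those that rose, IGF1, IGF2, FGF1, FGF7, FGF18, BDNF and ANGPT2, and FGF10 with CIC::NUTM1, did not meet the filter's level in all 3 empty vector libraries and needed the fusion libraries, where they are high, to be tested. Their calls, here and below, are therefore no support. Of the ligands that met it in all 3 libraries of both groups, 6 of 33 rose with CIC::DUX4, and 10 of 34 rose and 2 fell with CIC::NUTM1. Among ephrins, EFNB2, a ligand of EPHB3, EPHB4 and EPHA4, was at 34.5, 32.7 and 36.4 CPM with empty vector, 52.4, 43.0 and 46 with CIC::DUX4 and 74.8, 61.4 and 67.1 with CIC::NUTM1, without overlap. It rose by 0.45 ± 0.09 log2 units with CIC::DUX4 (edgeR adjusted p = 0.00191) and 0.97 ± 0.09 log2 units with CIC::NUTM1 (adjusted p = 2.63e-08). EFNA5 rose by 0.51 ± 0.10 log2 units with CIC::NUTM1 (adjusted p = 0.000758), and EFNB3 fell by 0.54 ± 0.14 log2 units there (adjusted p = 0.0093).

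ANGPT2, which binds TEK, was at 0.465 ± 0.0980 CPM with empty vector, 6.34 ± 0.617 with CIC::DUX4 and 44.2 ± 11.5 with CIC::NUTM1 (edgeR adjusted p = 8.84e-10 and 1.66e-14). Its receptor TEK had 3, 14 and 5 counts in all. ANGPT1, the other TEK ligand, was at 0.778 ± 0.195, 5.06 ± 1.34 and 2.7 ± 0.966 CPM and rose with both fusions. ALKAL1, a ligand of ALK and LTK, was at 2.08 ± 0.0820, 4.4 ± 0.901 and 11.3 ± 3.93 CPM and rose with both (adjusted p = 0.00741 and 9.93e-08). HBEGF, a ligand of EGFR and ERBB4, rose from 5.76 ± 0.574 to 10.6 ± 2.45 and 10.9 ± 1.30 CPM, and the neuregulin NRG2 rose from 9.36 ± 1.32 to 14.1 ± 1.5 and 17.2 ± 2.09.

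FGF1, FGF7 and IGF1 had 0 counts in every empty vector library and passed the filter through fusion libraries alone, so their calls are no support. FGF1 was at 1.122 ± 0.387 CPM with CIC::DUX4 and 4.04 ± 0.502 with CIC::NUTM1, at least 8.86-fold and at least 31.9-fold higher. FGF7, a ligand of the FGFR2 splice form of epithelia, was at least 15.3-fold and at least 30.1-fold higher. IGF1 went the other way between the fusions, at 2.11 ± 0.522 CPM with CIC::DUX4 and 0.519 ± 0.149 with CIC::NUTM1, at least 16.7-fold and at least 4.10-fold higher than empty vector (log2 -2.02 ± 0.51 between the fusions, edgeR adjusted p = 0.0149). Its receptor IGF1R was higher with CIC::NUTM1.

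The remaining ligands that rose with both fusions were BDNF, FGF18, IGF2 and WNT5A. BDNF, at 0.319 ± 0.0326, 0.992 ± 0.488 and 2.52 ± 0.533 CPM, binds NTRK2, and WNT5A, at 36.1 ± 2.64, 55.2 ± 6.74 and 109 ± 21.8 CPM, binds ROR2, which fell with CIC::NUTM1. FGF10, GAS6, PDGFA and PDGFC were called higher with CIC::NUTM1 and not with CIC::DUX4, and of these PDGFA differed between the fusions (log2 1.62 ± 0.27, edgeR adjusted p = 0.00063). FGF9 fell with CIC::NUTM1. Between the fusions, 8 ligands were higher with CIC::NUTM1 (AGRN, ALKAL1, ANGPT2, EFNA5, EFNB2, FGF1, PDGFA and WNT5A) and 2 lower (FGF2 and IGF1), 17% and 4.26% of those tested, where 4.97% of all tested genes were higher and 1.64% lower.

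Of 16 tested co-receptors among 20 listed, 3 rose with CIC::DUX4 (GFRA1, GPC1 and NRP1) and 1 fell (SDC1), and 4 rose with CIC::NUTM1 (FGFRL1, GFRA1, NGFR and NRP1). The shares that rose are 18.8% and 25%, beside 6.96% and 11.5% of all tested genes. With CIC::DUX4, 6.25% fell, beside 1.27% of all tested genes. NRP1, which presents VEGF-A to KDR, was at 30.8 ± 2.43 CPM with empty vector, 53.1 ± 6.57 with CIC::DUX4 and 94.4 ± 20.01 with CIC::NUTM1 (edgeR adjusted p = 0.0018 and 8.41e-07). GFRA1, the GDNF-binding partner of RET, was at 12.0 ± 1.116, 19.9 ± 2.82 and 19.6 ± 1.18 CPM, while RET was at 2.94 ± 0.815, 2.35 ± 0.0948 and 2.24 ± 0.502 CPM and was not called. Between the fusions, FGFRL1, NRP1 and SDC2 were higher with CIC::NUTM1 (18.8%, against 4.97% of all tested genes).

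The list of inhibitors holds mainly genes that block, dephosphorylate or degrade receptors, and not only receptor tyrosine kinases. Whether each acts on the members was not tested. Of 24 tested inhibitors among 27 listed, 4 rose with CIC::DUX4 (CBLB, ERRFI1, PTPN1 and SOCS3) and 10 with CIC::NUTM1, the same 4 with GRB7, LRIG3, RNF43, SOCS1, SOCS5 and SOCS6, while GRB10 fell with CIC::NUTM1. The shares that rose are 16.7% and 41.7%, beside 6.96% and 11.5% of all tested genes. With CIC::NUTM1, 4.17% fell, near the 3.83% of all tested genes. GRB7 fell short of the filter with empty vector, so its call is no support, and 9 of the other 23 rose with CIC::NUTM1. ERRFI1, which binds and blocks EGF receptor kinases, was at 33.3, 34.8 and 31.4 CPM with empty vector, 107, 77.4 and 81.7 with CIC::DUX4 and 159, 114 and 162 with CIC::NUTM1. It rose by 1.42 ± 0.15 log2 units with CIC::DUX4 (edgeR adjusted p = 8.91e-05) and 2.12 ± 0.15 log2 units with CIC::NUTM1 (adjusted p = 1.77e-06). CBLB, a ubiquitin ligase that sends receptors to degradation, was at 13.4 ± 1.63, 30.2 ± 6.08 and 18.8 ± 2.06 CPM, highest with CIC::DUX4 (log2 -0.69 ± 0.14 between the fusions, adjusted p = 0.00171). LRIG3, a membrane protein of the LRIG family, was at 34.9 ± 1.76, 39.3 ± 1.91 and 77.5 ± 10.7 CPM. Of the inhibitors, LRIG3, ERRFI1 and STUB1 were the 3 higher with CIC::NUTM1 when the fusions were compared, and CBLB the 1 lower (12.5% and 4.17%, against 4.97% and 1.64% of all tested genes).

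Of 30 tested adaptors among 31 listed, 5 rose and 1 fell with CIC::DUX4, and 7 rose and 2 fell with CIC::NUTM1. The shares are 16.7% and 3.33%, then 23.3% and 6.67%, where 6.96% and 1.27%, then 11.5% and 3.83% of all tested genes rose and fell. SHC3, SHC4 and DOK5 fell short of the filter with empty vector. They needed the fusion libraries, where they are high, to be tested, so their calls are no support. Of the 26 adaptors that met it in both groups, 2 rose (7.69%) and 1 fell with CIC::DUX4 and 4 rose (15.4%) and 2 fell with CIC::NUTM1. These shares that rose lie nearer to the 6.96% and 11.5% of all tested genes. SHC3 and SHC4, docking proteins of the SHC family, were near 0 at rest: SHC3 was at 0.458, 0.146 and 0.200 CPM with empty vector, 50.6, 33.8 and 36.7 with CIC::DUX4 and 63.8, 43.0 and 58.5 with CIC::NUTM1. SHC4 was at 0.515, 0.205 and 0.0401 CPM with empty vector, 45.5, 35.5 and 37.1 with CIC::DUX4 and 46.4, 27.1 and 40.2 with CIC::NUTM1. Both rose with each fusion (edgeR adjusted p = 1.62e-09 and 3.71e-10 for SHC3, 6.89e-08 and 4.54e-08 for SHC4), and no fusion library overlapped with empty vector. DOK5, IRS2 and SH2B2 also rose with both, and FRS2 and IRS1 with CIC::NUTM1. IRS4, the abundant insulin receptor substrate of these cells, was at 1309.8 ± 67.6, 992 ± 68.3 and 1027 ± 155 CPM and fell with both, and CRK fell with CIC::NUTM1. IRS2 was the 1 adaptor called between the fusions (3.33%, against 4.97% of all tested genes higher; log2 0.81 ± 0.14, adjusted p = 0.000252).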

How the data were processed

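Bulk polyA RNA-seq counts were analysed for 9 libraries, 3 per group, grouped by the sample labels. The tables deposited by the authors hold raw counts for Ensembl genes and log2 CPM for named genes. The submitters' processing notes name STAR 2.7.10b, GRCh38, R 4.2.2 and edgeR 3.40.2; the gene annotation, and whether counting used strand, are not given in the sources used here. Per the labels' protocols, the library kit kept strand.

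Genes were kept by filterByExpr (17576 of 34765 with a count), and the 9 libraries were scaled by TMM and fitted together by group with edgeR 4.0.16 in R 4.3.3 (robust glmQLFit and glmQLFTest; biological coefficient of variation 10.1%). The SE is the size of the log2 fold change over the root of the F statistic. Within-group pairs of libraries differed by more than counting noise (chi-square per degree of freedom 5.73 to 9.71), so each was counted. Exon lengths and positions come from GENCODE 29 (GRCh38), and promoter sequences from RefSeq (GRCh38.p14).

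The members and the lists of ligands, co-receptors, inhibitors, adaptors and markers were chosen with earlier results of these data known. Named with values per library are members called in any comparison, the 10 highest per kilobase with empty vector, members with a called subfamily mate, and members that left the floor of 3 counts; of the lists, called genes are named. Alternatives covered the scaling (size factors of DESeq2, library totals, upper quartile), the filter (none, or a minimum of 10 counts per library), the test (DESeq2 1.42.0; limma-trend, limma 3.58.1, on the deposited log2 CPM), a fit restricted to the pair of groups compared, a replicate block, refits without each library, and a change of at least 1 in log2. The longest coding transcript as gene length was added after the data were seen. Figures were drawn with matplotlib 3.10.9.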

Additional observations from a re-analysis of the deposited data

How the results depend on the processing

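No called value changed sign in any alternative. Of the 32 calls of a member in a comparison, 20 held in every alternative that gave a value, 12 were lost without at least 1 library and 3 in at least 1 other setting (NTRK3 with CIC::DUX4, ERBB4 with CIC::NUTM1, FGFR3 between the fusions, adjusted p = 0.0601 with upper quartile factors). Of 106 member values that were not called, 11 were called in at least 1 alternative.

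Requiring a change of 1 on the log2 scale left 5 members higher and 0 lower for CIC::DUX4, 5 and 0 for CIC::NUTM1, and 1 and 0 for the fusions set against each other. The 5 were EPHA2, EPHB3, DDR2, LMTK3 and NTRK3 with CIC::DUX4, and EPHA2, EPHA5, EPHB3, KDR and NTRK3 with CIC::NUTM1. NTRK3 and KDR did not meet the filter's level in all empty vector libraries. The share of all tested genes at this cut was not counted, so these counts stand without a background. The member called lower with CIC::DUX4 became 2, with MERTK, without the filter, in a fit of only the 2 groups compared and with the replicate block, and 1 to 2 without 1 library (2 without empty vector library 1 or CIC::DUX4 library 2). With CIC::NUTM1, library totals and upper quartile factors each gave 4 lower members, with PTK7 and TYRO3, and leaving out 1 library gave 1 to 2 (1 without empty vector library 2 or CIC::NUTM1 library 3). Between the fusions, leaving out 1 library gave 3 (without CIC::NUTM1 library 3) to 8 (without CIC::NUTM1 library 2) members higher with CIC::NUTM1 and 0 (without CIC::NUTM1 library 2 or CIC::DUX4 library 1) to 1 lower, and library totals, upper quartile factors and DESeq2 each gave 2 lower, with ERBB2. The cause was not tested.

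Library totals moved the median of all tested genes by at most -0.05 on the log2 scale. The share of called genes that were higher with CIC::NUTM1 than with empty vector was 75%, against 61% with library totals and 61.7% with upper quartile factors, and between the fusions 75.2%, against 61.4% with library totals.

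Same-numbered libraries shared no clear deviation over all tested genes: their correlations ran from -0.07 to 0.13, and those of differently numbered ones from -0.16 to 0.11. The numbers were not taken as pairs in the main fit. Correlations over all genes cannot exclude a shared transfection day for single genes, and the block changed some calls, such as those of EPHB3 and KDR given above. With the replicate number as a block, the members called higher numbered 9 for CIC::DUX4, 15 for CIC::NUTM1 and 6 for CIC::NUTM1 over CIC::DUX4. The floor of 3 counts per library was a set value, and no limit of detection was estimated.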
